A study of Mus musculus with 12 samples.

Results

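The insulin-like growth factor (IGF) axis was followed through 10 genes in mouse granulosa cells, the cells that surround the oocyte and line the ovarian follicle. The members were taken by gene symbol from the platform's annotation: the ligand gene Igf1, the receptor genes Igf1r and Insr, the docking protein genes Irs1 and Irs2, the receptor inhibitor gene Grb14, and the binding protein genes Igfbp2, Igfbp3, Igfbp4 and Igfbp5. Every probe set with one of these symbols was used, which gave 27 of the 45101 probe sets on the array, and 10 of the 18194 genes tested. A probe set is a group of short probes that together read 1 transcript or several transcripts of a gene. RNA was hybridised to 12 Affymetrix arrays, each carrying cells pooled from 5 mice, with 3 arrays in each of 4 groups.

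The groups crossed genotype with time after human chorionic gonadotropin (hCG), which triggers ovulation through the receptor for luteinizing hormone (LH). Ex6DEL mice lacked exon 6 of Snf2l (symbol Smarca1), the ATPase of an ISWI chromatin remodeller. The line arose from a loxP-flanked exon 6 allele made in 129Sv mice and a Gata-1 Cre transgene, active in all tissues, from CD-1 mice. The deletion had passed to the germ line, so it was present in every cell and no longer needed Cre, and the line was kept on 129SV. Wild-type (WT) littermates were the controls. All females, in all 4 groups, were given pregnant mare serum gonadotropin (PMSG, 5 IU) at 24 to 26 days of age. The WT 0 h and Ex6DEL 0 h groups were collected 48 h later, and the WT 4 h and Ex6DEL 4 h groups received 5 IU of hCG at that point and were collected 4 h afterwards. Whether each of the 3 arrays in a group had its own pool is not stated, so p-values measure only the spread between arrays, which may be technical.

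IGF1 binds the IGF1 receptor, and insulin binds the closely related insulin receptor. Both are tyrosine kinases that phosphorylate the docking proteins IRS1 and IRS2, which recruit phosphatidylinositol 3-kinase (PI3K) and so activate AKT and hold FOXO transcription factors out of the nucleus. GRB14 binds the active insulin receptor and inhibits its kinase. The binding proteins hold IGF1 outside the cell, and the protease encoded by Pappa releases it by cutting IGFBP4. In the mouse ovary, granulosa cells of growing follicles make IGF1, which amplifies their response to follicle-stimulating hormone.

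Values are log2 intensities as deposited, with a floor of 2.21 and array medians between 2.75 and 2.91. Levels were compared between arrays for the same probe set only. In bulk samples, fewer cells of a type and less RNA per cell cannot be told apart. The 9 measured granulosa markers had a mean level of 10.6 to 12.5 on every array, but not all of them were high. Amh, made by granulosa cells of smaller growing follicles, was at the floor on all 12. Gatm lay between 2.44 and 4.14, with a median of 2.44. Before the members are described, 3 arrays need mention. The 13 measured theca and stroma markers averaged 10.9 in Ex6DEL 0 h replicate 1, against 6.88 to 8.29 on the other 11 arrays. The 14 measured ovulatory genes that LH induces averaged 9.79 in Ex6DEL 0 h replicate 3, against 4.72 and 4.89 on the other arrays of that group and 11.4 to 12.8 on the 4 h arrays. WT 0 h replicate 1 stood at 5.81 for the same genes, against 4.85 and 4.79. Smarca1 was 10.72 ± 0.40 in WT and 10.76 ± 0.18 in Ex6DEL at 0 h (mean ± SD, n = 3), but where its probe set lies in the gene is not known here, so this level does not check the genotype.

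Promoter sequence is shown for Irs1 and Grb14, the pair of members whose decrease after hCG passed the test in Ex6DEL, and for Igf1r, whose 5 probe sets were all higher after hCG in WT. Each run below is the 250 bases before the RefSeq start site, read 5′ to 3′ on the gene's strand from RefSeq windows of GRCm38.p6. Capitals mark every match to the 8 motifs searched, on either strand.
Irs1, chr1:82291440-82291689, minus strand: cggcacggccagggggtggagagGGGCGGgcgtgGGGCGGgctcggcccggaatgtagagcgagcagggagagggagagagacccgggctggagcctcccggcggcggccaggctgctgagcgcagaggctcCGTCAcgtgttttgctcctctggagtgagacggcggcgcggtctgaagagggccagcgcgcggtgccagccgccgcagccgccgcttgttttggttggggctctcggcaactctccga
Grb14, chr2:65022767-65023016, minus strand: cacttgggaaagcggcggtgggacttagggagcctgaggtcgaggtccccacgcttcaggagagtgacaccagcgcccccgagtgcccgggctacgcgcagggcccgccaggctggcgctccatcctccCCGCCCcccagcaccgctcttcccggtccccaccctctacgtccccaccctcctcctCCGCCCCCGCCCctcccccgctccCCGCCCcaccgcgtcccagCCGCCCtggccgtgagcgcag
Igf1r, chr7:67952007-67952256, plus strand: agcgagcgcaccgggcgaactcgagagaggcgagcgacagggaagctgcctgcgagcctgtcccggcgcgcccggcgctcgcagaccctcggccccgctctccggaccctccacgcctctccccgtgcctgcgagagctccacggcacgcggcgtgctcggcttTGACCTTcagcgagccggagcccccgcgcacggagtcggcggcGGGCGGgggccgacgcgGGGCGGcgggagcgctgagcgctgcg

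The RefSeq table matched 9 of the 10 members, all but Insr, and gave 10 windows of 300 bases, 250 before and 50 after the start site. All percentages of windows here are of the 32851 windows in that table. The motifs were the cAMP response element TGACGTCA (in 1.79% of windows), its core TGACG (20.8%), which the full element contains, and the NR5A receptor site AAGGTCA (4.72%). The others were the AP-1 site TGACTCA (5.2%), the FOXO site GTAAACA (3.65%), the GC box GGGCGG (35.7%), the CCAAT box CCAAT (37.4%) and the TATA box TATAAA (13.6%). Grb14 held 5 GC boxes, all on the strand opposite to the gene. Irs1 held 2 GC boxes and 1 TGACG core, 118 bases before its start. Igf1r held 2 GC boxes and 1 NR5A site, 86 bases before its start, on the opposite strand. All 3 windows were rich in CpG dinucleotides, with 28 in Irs1, 30 in Grb14 and 48 in Igf1r, against a median of 7 over all windows. Igf1 with 6 and Igfbp5 with 10 lay near that median. No member window matched the full cAMP response element or the FOXO site, which says only that those letters are not in these windows.

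After hCG the members moved apart. Irs1 and Grb14 had lower levels at 4 h in both genotypes, and Igf1r had higher levels in both, but only the decreases of Irs1 and Grb14 in Ex6DEL passed the test. Neither passed in the fit with the replicate number as a block, which called 0 of the 10 members and 92 of all 18194 genes in Ex6DEL. The test was limma's moderated test with Benjamini-Hochberg adjustment over all 18194 genes, and called means an adjusted p under 0.05. In Ex6DEL 2 of the 10 members were called, both lower, beside 2.17% of all genes called and 1.6% called lower. In WT none of the 10 was called, beside 0.929% of all genes. There 3 members had an unadjusted p under 0.05, 1 with a higher and 2 with a lower level, beside 14.4% of all genes. The median log2 change over the 10 members was 0.08 in WT and -0.84 in Ex6DEL. Over the genes above the median level it was -0.07 in WT and -0.34 in Ex6DEL. Quantile normalization between arrays moved the members' medians to -0.27 in WT, a turn of sign, and -0.49 in Ex6DEL, beside -0.16 and -0.15 over those genes. Marker genes moved too in Ex6DEL after hCG: 2 of 9 granulosa markers were called lower, with a median change of -0.69 over the list, and the 13 theca and stroma markers had a median of -1.60 with none called. Their part in the members' changes was not tested.

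**Figure D1:**
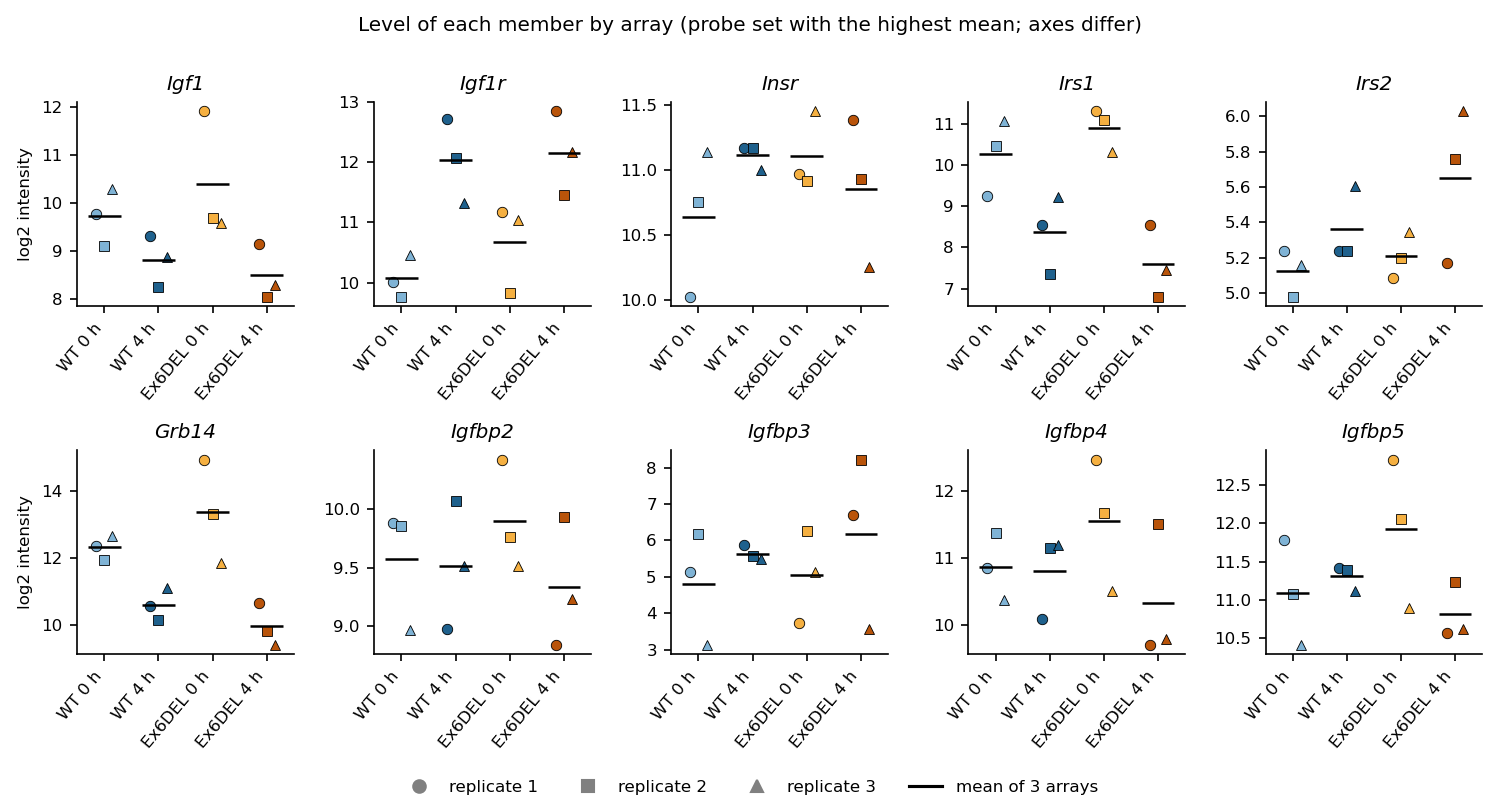
Log2 intensity of the 10 members by array, 1 panel per gene with its own axis, for the probe set with the highest mean. Points are single arrays (circle, square and triangle for replicates 1, 2 and 3), and bars are means of 3 arrays. The Irs1 and Grb14 points of both 4 h groups lie below all points of their own 0 h group, those of Igf1r lie above, and Ex6DEL 0 h replicate 1 is the highest of the 12 arrays for 6 of the 10 members.

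For 3 members in WT the 0 h and 4 h arrays did not overlap, with Igf1r higher and Irs1 and Grb14 lower. In Ex6DEL this held for the same 3 and for Igf1, which was lower. Among all genes, non-overlapping arrays were higher for 7.52% and lower for 11.4% in WT, and higher for 5.13% and lower for 14.5% in Ex6DEL.

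Igf1 encodes the ligand. Its probe set 1437401_at read 9.78, 9.11 and 10.30 in WT at 0 h and 9.32, 8.25 and 8.87 at 4 h. In Ex6DEL it read 11.90, 9.69 and 9.57 at 0 h and 9.13, 8.05 and 8.30 at 4 h. The groups overlapped in WT and not in Ex6DEL, where replicate 1 of 0 h stood more than 2 units above the other arrays of its group. The log2 change was -0.91 in WT (SE 0.64, limma adjusted p = 0.579). It was -1.90 in Ex6DEL with the same SE (adjusted p = 0.158), and both missed the threshold. Without Ex6DEL 0 h replicate 1 the Ex6DEL change was -1.14 (adjusted p = 0.329).

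The 4 Igf1 probe sets did not read alike. Probe set 1434413_at read 9.21, 8.70 and 9.71 in WT at 0 h against 8.13, 7.38 and 7.88 at 4 h, with no overlap. In Ex6DEL it read 11.52, 8.78 and 9.16 at 0 h against 7.97, 6.28 and 7.27 at 4 h, again with no overlap. Its log2 changes were -1.41 in WT and -2.65 in Ex6DEL, with limma adjusted p of 0.508 and 0.127 over all probe sets. The others showed little difference, at 0.29 and -0.03 for 1452014_a_at and -0.29 and -0.04 for 1419519_at in WT and Ex6DEL.

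Igf1r encodes the receptor tyrosine kinase for IGF1. Its main probe set, 1428967_at, read 10.01, 9.76 and 10.47 in WT at 0 h and 12.72, 12.07 and 11.32 at 4 h. In Ex6DEL it read 11.18, 9.83 and 11.04 at 0 h and 12.85, 11.45 and 12.17 at 4 h. Every 4 h array lay above every 0 h array, within each genotype and across both. The log2 change was 1.96 in WT (SE 0.51, 95% interval 0.80 to 3.11, limma adjusted p = 0.122) and 1.47 in Ex6DEL (SE 0.51, interval 0.32 to 2.63, adjusted p = 0.162). In order of mean level, Ex6DEL 4 h stood at 12.16, WT 4 h at 12.04, Ex6DEL 0 h at 10.68 and WT 0 h at 10.08, and the genotypes overlapped at each time.

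All 5 Igf1r probe sets were higher at 4 h than at 0 h in WT with no overlap between arrays, by 1.25 to 2.70 on the log2 scale. The largest of these differences was that of 1426565_at, which read 6.76, 7.54 and 7.82 at 0 h and 9.71, 10.96 and 9.58 at 4 h. The smallest was that of 1452982_at, at 10.06, 10.04 and 10.57 against 11.51, 11.95 and 10.97. In Ex6DEL the 5 probe sets had differences of 0.33 to 1.83, and arrays did not overlap for 3 of them. These probe sets share the same RNA and the same arrays, so they are not separate replicates. None passed the test over all probe sets, with limma adjusted p of 0.104 to 0.377 in WT and 0.199 to 0.874 in Ex6DEL.

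Insr encodes the insulin receptor. Its main probe set read 10.03, 10.76 and 11.14 in WT at 0 h, 11.17, 11.17 and 11.00 in WT at 4 h, 10.97, 10.92 and 11.45 in Ex6DEL at 0 h and 11.39, 10.93 and 10.26 in Ex6DEL at 4 h. All 4 groups overlapped. Its log2 change was 0.47 in WT (95% interval -0.30 to 1.24) and -0.25 in Ex6DEL (interval -1.02 to 0.52). The other Insr probe sets stayed between 2.24 and 3.77 on all arrays, close to the floor of the table.

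Irs1 encodes the docking protein that links both receptors to PI3K, and the array holds 1 Irs1 probe set, 1423104_at. It read 9.24, 10.46 and 11.06 in WT at 0 h and 8.54, 7.35 and 9.22 at 4 h. In Ex6DEL it read 11.30, 11.09 and 10.31 at 0 h and 8.55, 6.80 and 7.45 at 4 h. The 4 h arrays lay below the 0 h arrays in both genotypes, by a narrow margin in WT, where 9.24 at 0 h faced 9.22 at 4 h. Irs1 fell by 3.30 on the log2 scale in Ex6DEL (SE 0.66, 95% interval -4.80 to -1.80, limma adjusted p = 0.0462, or 0.0769 with the replicate block), a 9.82-fold lower intensity. In WT the change was -1.89 (SE 0.66, interval -3.39 to -0.39, adjusted p = 0.240), which did not pass. The difference between these responses was -1.41 (SE 0.93, interval -3.53 to 0.71, adjusted p = 0.871), so a larger response in Ex6DEL was not shown. In order of mean level, Ex6DEL 0 h stood at 10.90, WT 0 h at 10.26, WT 4 h at 8.37 and Ex6DEL 4 h at 7.60, with the genotypes overlapping at each time.

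Irs2, the other docking protein gene of the list, was low and nearly flat. Its probe set read 5.24, 4.98 and 5.16 in WT at 0 h, 5.24, 5.24 and 5.60 in WT at 4 h, 5.09, 5.20 and 5.34 in Ex6DEL at 0 h and 5.17, 5.76 and 6.03 in Ex6DEL at 4 h. The groups overlapped, with log2 changes of 0.24 in WT (95% interval -0.23 to 0.70) and 0.44 in Ex6DEL (interval -0.03 to 0.91). The Irs2 mean in Ex6DEL at 0 h, 5.21, lay above the floor of 2.21 by less than the 3.30 that Irs1 fell in Ex6DEL. A decrease of that size could therefore not be read for Irs2, and the floor compresses low values. The Irs2 value was identical, 5.2401, in WT 0 h replicate 1 and WT 4 h replicates 1 and 2. Whether a smaller decrease could be read is therefore not known. The intervals thus do not show that Irs2 was steadier than Irs1, and the difference between these 2 genes was not tested.

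Grb14 encodes the adaptor that inhibits the insulin receptor. Its main probe set, 1417673_at, read 12.36, 11.94 and 12.67 in WT at 0 h and 10.57, 10.14 and 11.09 at 4 h. In Ex6DEL it read 14.95, 13.32 and 11.84 at 0 h and 10.65, 9.82 and 9.39 at 4 h. The 4 h arrays lay below the 0 h arrays in both genotypes, and the 0 h arrays of Ex6DEL spread over more than 3 units. Grb14 fell by 3.42 on the log2 scale in Ex6DEL (SE 0.70, 95% interval -5.02 to -1.81, limma adjusted p = 0.0487, or 0.0671 with the replicate block), a 10.7-fold lower intensity. In WT the change was -1.72 (SE 0.70, interval -3.33 to -0.12, adjusted p = 0.312), and the difference between the responses was -1.69 (SE 0.995, interval -3.96 to 0.57, adjusted p = 0.871). The other Grb14 probe set stayed between 2.65 and 4.31. It was below the highest array median of 2.91 on 8 of 12 arrays, and its log2 changes of -0.68 in WT and 0.57 in Ex6DEL differed in sign.

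Both calls in Ex6DEL lay close to the threshold. In Ex6DEL, the deviations of same-numbered arrays from their group means correlated positively between 0 h and 4 h, and the fit with the replicate number as a block ends both calls. Whether the numbers pair the arrays is not known. Leaving out single arrays, Irs1 passed in 2 of 12 fits and Grb14 in 1 of 12. Without Ex6DEL 0 h replicate 1, where theca and stroma markers were high, the changes were -3.10 (adjusted p = 0.139) for Irs1 and -2.62 (adjusted p = 0.0909) for Grb14. No member was called in that fit, beside 53 of 18194 genes. Without Ex6DEL 0 h replicate 3, where ovulatory genes were high, they were -3.59 (adjusted p = 0.0349) and -4.18 (adjusted p = 0.0120). The Irs1 change in Ex6DEL stayed between -3.77 and -2.90 and that of Grb14 between -4.18 and -2.62 when single arrays were left out.

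**Figure D2:**
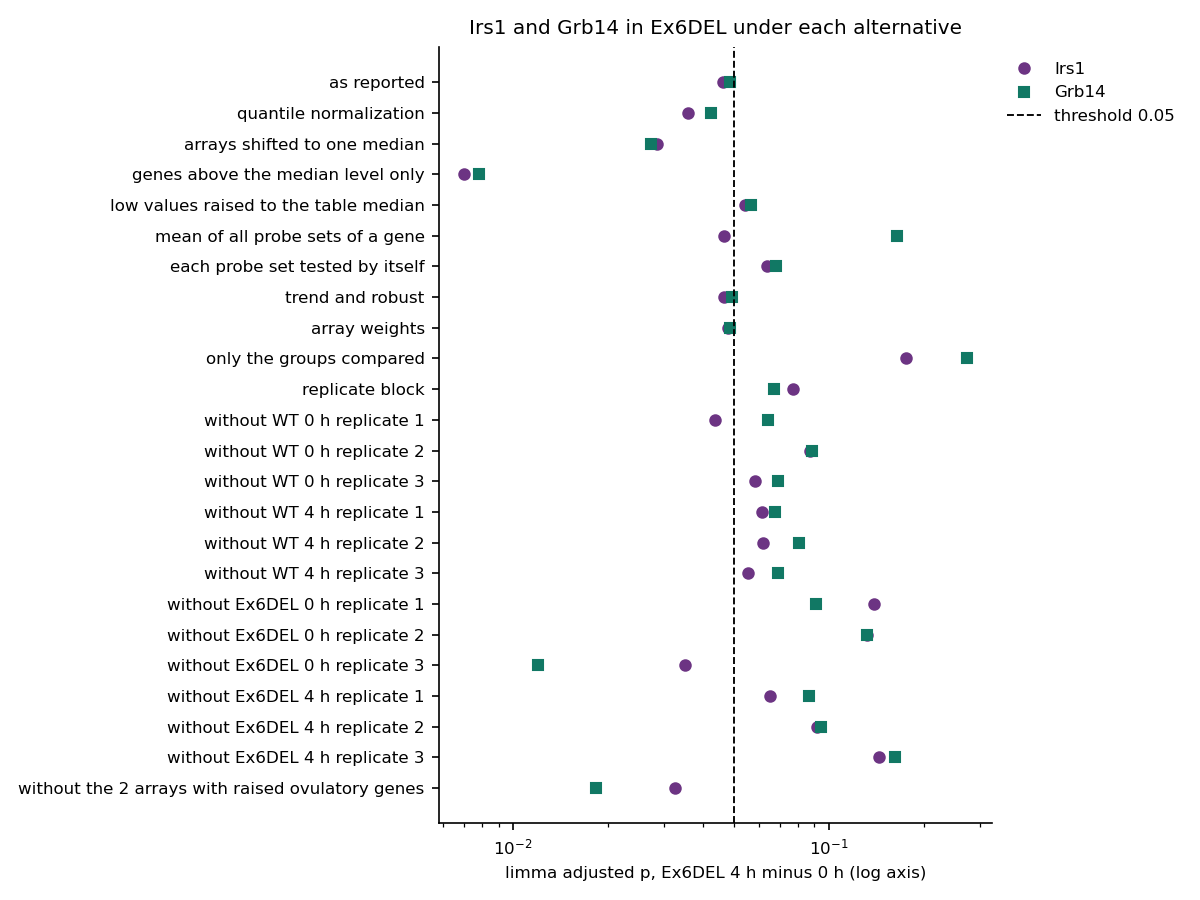
Limma adjusted p (log axis) of the Irs1 and Grb14 changes after hCG in Ex6DEL, as reported and under each of the 23 alternatives. The dashed line is the threshold of 0.05, and the points lie on both sides of it, from 0.00702 to 0.175 for Irs1 and from 0.00779 to 0.274 for Grb14.

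The binding proteins showed no change that passed the test in either genotype. Igfbp2 read 9.88, 9.86 and 8.97 in WT at 0 h, 8.98, 10.06 and 9.51 in WT at 4 h, 10.42, 9.76 and 9.51 in Ex6DEL at 0 h and 8.84, 9.93 and 9.23 in Ex6DEL at 4 h. All groups overlapped, and its log2 changes were -0.05 in WT (95% interval -0.99 to 0.88) and -0.56 in Ex6DEL (interval -1.50 to 0.37). Igfbp3, the main carrier of IGF1 in blood, was the most scattered member. It read 5.12, 6.16 and 3.13 in WT at 0 h, 5.86, 5.57 and 5.48 in WT at 4 h, 3.73, 6.26 and 5.14 in Ex6DEL at 0 h and 6.71, 8.22 and 3.57 in Ex6DEL at 4 h. With an SE of 1.22 its changes of 0.83 and 1.12 were smaller than their error.

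Igfbp4, the binding protein cut by the protease of Pappa, has 6 probe sets. Its main one read 10.86, 11.37 and 10.38 in WT at 0 h, 10.09, 11.15 and 11.19 in WT at 4 h, 12.46, 11.67 and 10.51 in Ex6DEL at 0 h and 9.71, 11.50 and 9.79 in Ex6DEL at 4 h. The log2 change was -0.06 in WT (SE 0.64) and -1.21 in Ex6DEL (SE 0.64, limma adjusted p = 0.363), and the groups overlapped in both genotypes. In Ex6DEL 4 of the 6 probe sets had changes of -1.68 to -1.04, and 1421992_a_at had -0.06. Without Ex6DEL 0 h replicate 1 the main change was -0.76. Probe set 1421991_a_at was at the floor on all 12 arrays.

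Igfbp5 binds IGF1 in the extracellular matrix, and its 2 probe sets ran against each other. Probe set 1452114_s_at, the brighter one, read 11.78, 11.08 and 10.42 in WT at 0 h, 11.41, 11.40 and 11.12 in WT at 4 h, 12.82, 12.05 and 10.89 in Ex6DEL at 0 h and 10.58, 11.24 and 10.62 in Ex6DEL at 4 h. Its log2 change was 0.21 in WT (SE 0.49) and -1.11 in Ex6DEL (SE 0.49, limma adjusted p = 0.270). Probe set 1422313_a_at read 9.83, 8.92 and 8.44 in WT at 0 h, 7.97, 7.44 and 8.32 in WT at 4 h, 5.20, 7.48 and 8.31 in Ex6DEL at 0 h and 7.98, 8.46 and 8.32 in Ex6DEL at 4 h. Its changes were -1.15 and 1.26, of opposite sign to those of the other probe set in each genotype. By Affymetrix naming, a probe set ending in _s_at or _x_at may also bind other transcripts, and which reading is that of Igfbp5 was not tested. Without the pair of arrays with raised ovulatory genes, 3 members were called lower in Ex6DEL: Irs1, Grb14 and Igfbp5, the last at -1.63 (adjusted p = 0.0387) by 1452114_s_at. In that fit 1015 of all 18194 genes were called lower in Ex6DEL.

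**Figure D3:**
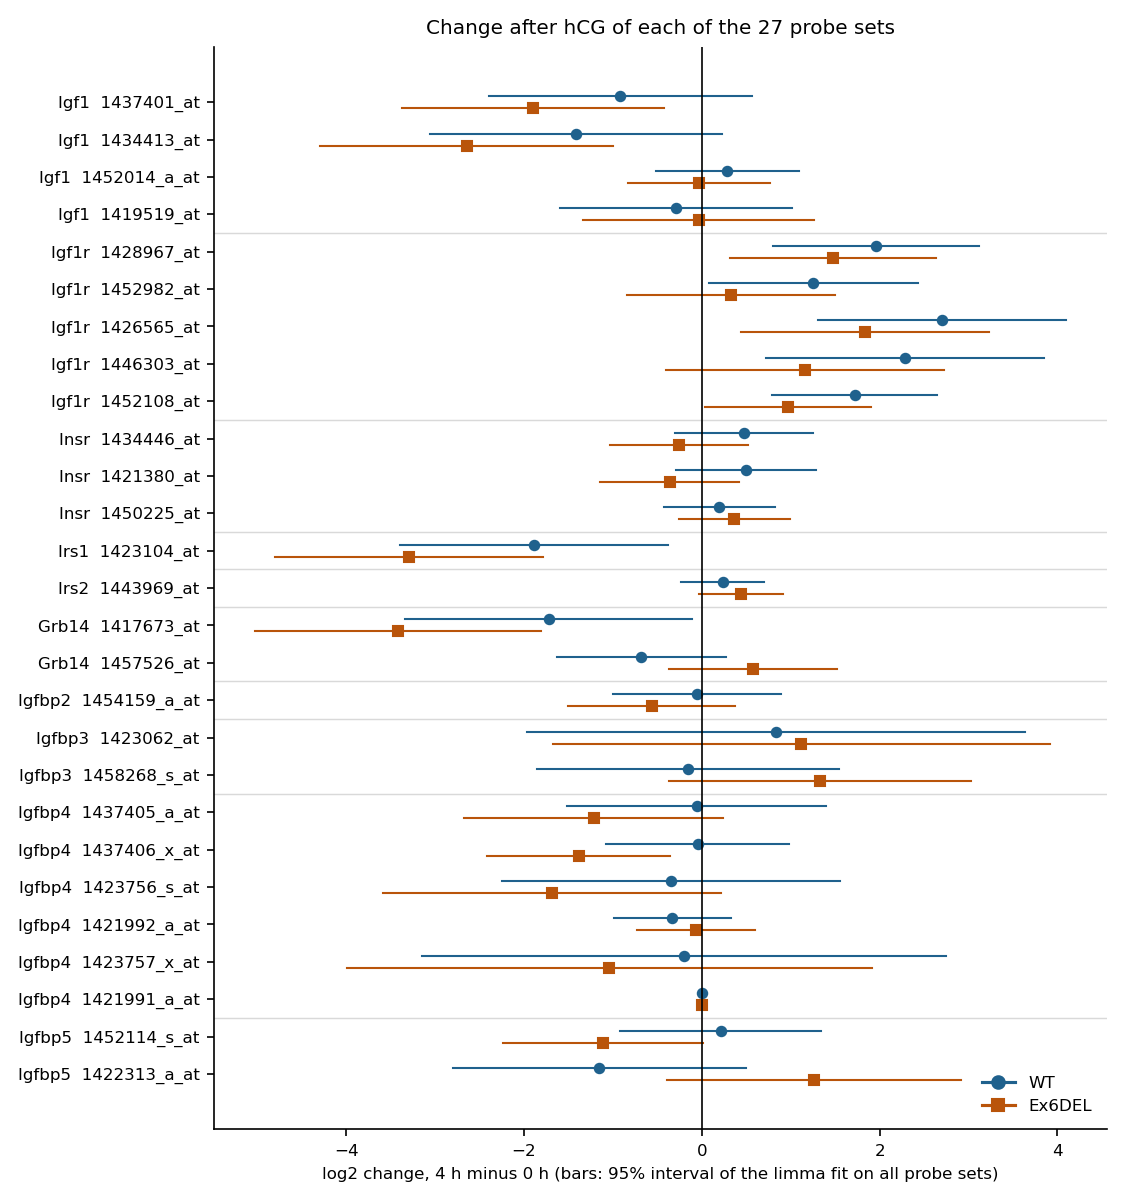
Log2 change from 0 h to 4 h after hCG of each of the 27 probe sets, in WT (blue circles) and Ex6DEL (orange squares), with 95% intervals of the limma fit on all probe sets. The 5 Igf1r probe sets lie to the right of 0 in both genotypes, those of Igf1 split between decreases and values near 0, and the pair for Igfbp5 lie on opposite sides in each genotype.

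Tested one by one over 34958 probe sets, none of the 27 was called in WT (0.618% of all probe sets were) or in Ex6DEL (0.858%). The smallest limma adjusted p was 0.104 in WT and 0.0639 in Ex6DEL, and 7 and 8 of the 27 had an unadjusted p under 0.05. That share over all probe sets was not computed, and over all genes it was 14.4% in WT and 18.9% in Ex6DEL. Arrays did not overlap for 11 of the 27 in WT, 6 higher and 5 lower, and for 7 in Ex6DEL, 3 higher and 4 lower. The share over all probe sets was 15.9% in WT and 16.2% in Ex6DEL, and 5 of the 6 that were higher in WT belong to Igf1r.

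Between genotypes no member was called. At 0 h all 10 main probe sets had a higher mean in Ex6DEL than in WT, by 0.08 to 1.05 on the log2 scale with a median of 0.62, beside a median of 0.21 over genes above the median level. For these main probe sets the genotypes overlapped in every member, where 6.41% of all genes did not, and 0.033% of all genes were called. Over all 27 probe sets, arrays did not overlap for 3 higher and 2 lower in Ex6DEL. The share over all probe sets was not computed, so this count has no background to be read against. Among them, Insr probe set 1421380_at (means 2.39 in WT and 2.84 in Ex6DEL) and Grb14 probe set 1457526_at (3.43 and 2.77) lay near the array medians. Also among them, Igf1r probe set 1446303_at differed by 1.73 and Igfbp5 probe set 1422313_a_at by -2.07, against its main probe set in sign. Each had a limma adjusted p of 0.927 over all probe sets. The median of genes above the median level turned to -0.03 under quantile normalization, where the members' median was 0.13 and Insr and Igfbp2 were lower in Ex6DEL. Grb14 had the largest difference, 1.05 (SE 0.70, limma adjusted p = 0.874), which was 0.25 without Ex6DEL 0 h replicate 1. Igfbp5 followed with 0.83 (SE 0.49, adjusted p = 0.874), which was 0.38 without that array, then Igfbp4 with 0.68 (SE 0.64). Igf1 differed by 0.66 (SE 0.64), which turned to -0.09 without the same array. Irs1 differed by 0.64 (SE 0.66), which was 0.14 without WT 0 h replicate 1. Igf1r differed by 0.60 (SE 0.51). With Ex6DEL 0 h replicate 1 left out this was 0.35, and with replicate 2 of the same group left out it was 1.03.

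That array, Ex6DEL 0 h replicate 1, gave the highest value of all 12 for 6 of the 10 members: Igf1, Irs1, Grb14, Igfbp2, Igfbp4 and Igfbp5. Among the 26 probe sets that varied, it was highest for 11. It also held the highest theca and stroma mean, 10.9, and the highest granulosa mean, 12.5, of all arrays. The leukocyte, red blood cell and ovarian surface epithelium lists peaked on other arrays. The oocyte mean, at most 8.73 on the other arrays, was 9.45 on Ex6DEL 0 h replicate 1. The endothelium mean, at most 4.39 on the others, was 4.47 on Ex6DEL 0 h replicate 1. Of the theca and stroma list 13 of 14 genes were measured, Gli1 was at the floor on all arrays, and the log2 of the summed level was 17.2 there, against 13.3 to 14.6 on the other arrays of its group. Cyp17a1, the theca enzyme of androgen synthesis, ranged from 9.20 to 15.1 over the 12 arrays, and Dcn, a matrix proteoglycan of stroma, from 8.54 to 13.9. The part of these markers in the members' levels was not tested. Without this array the members' median difference at 0 h was 0.30 and 9 of 10 were positive.

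**Figure D4:**
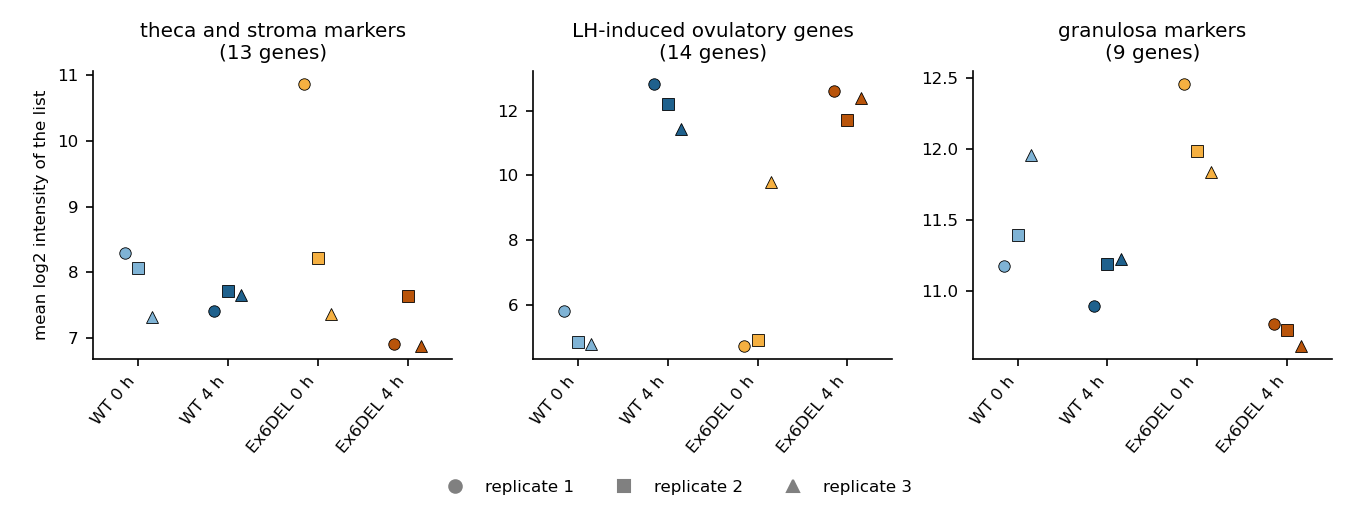
Mean log2 intensity of the theca and stroma markers (13 genes), the LH-induced ovulatory genes (14) and the granulosa markers (9) on each array, with shapes for replicates 1, 2 and 3. Ex6DEL 0 h replicate 1 stands apart at 10.9 in the first panel, and Ex6DEL 0 h replicate 3 at 9.79 lies between the other 0 h arrays and the 4 h arrays in the second.

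At 4 h the members' differences between Ex6DEL and WT lay between -0.77 (Irs1) and 0.53 (Igfbp3), with a median of -0.29. All overlapped, where 2.98% of all genes did not, and 0% of all genes were called. Irs1 differed by -0.77 (SE 0.66, 95% interval -2.27 to 0.73), Grb14 by -0.64 (SE 0.70, interval -2.25 to 0.96) and Igf1r by 0.12 (SE 0.51, interval -1.04 to 1.27), each with a limma adjusted p of 1. These intervals still hold differences of more than 2-fold in either direction for Igf1r and lower Irs1 and Grb14 levels in Ex6DEL.

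No difference between the genotypes in the response to hCG passed the test of the difference itself for any of the 10 members, beside 0.011% of all genes. By the main probe sets, the difference in response was negative for 8 of the 10. Its median was -0.85 and its range -1.69 (Grb14) to 0.29 (Igfbp3), beside a median of -0.32 over genes above the median level. Quantile normalization brought that background to -0.01, the members' median to -0.23 and the number of negative members to 6. The comparisons share their arrays: the 0 h arrays of Ex6DEL enter both the difference at 0 h and the response of Ex6DEL with opposite sign. In Igf1r the difference was -0.48 (SE 0.72), in Igf1 -0.98 (SE 0.91) and in Igfbp5 -1.33 (SE 0.70), each with a limma adjusted p of 0.871 to 0.898. The other Igfbp5 probe set, 1422313_a_at, had the opposite sign, at 2.41 (SE 1.02, limma adjusted p = 0.889 over all probe sets). Single arrays moved the values of the main probe sets: without Ex6DEL 0 h replicate 1 the difference in response was -0.90 for Grb14, -0.23 for Igf1 and -0.88 for Igfbp5. For Igf1r it was -0.13 without Ex6DEL 4 h replicate 2, and for Irs1 -0.90 without WT 0 h replicate 1.

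The rest of the pathway was read from a list of 59 other genes, of which 54 were measured, and none was called in any of the 5 comparisons. After hCG the arrays did not overlap for 6 higher and 6 lower genes of the 54 in WT and for 5 higher and 9 lower genes in Ex6DEL. Over all genes the shares were 7.52% higher and 11.4% lower in WT, and 5.13% higher and 14.5% lower in Ex6DEL. The median log2 change over the list was 0.00 in WT and -0.22 in Ex6DEL. Foxo1, the transcription factor that AKT holds out of the nucleus, had the smallest p in Ex6DEL. It read 13.77, 12.87 and 11.90 at 0 h and 10.06, 9.55 and 9.22 at 4 h, a log2 change of -3.24 (SE 0.68, limma adjusted p = 0.0511). In WT it read 11.34, 12.26 and 13.43 at 0 h and 9.74, 9.31 and 11.09 at 4 h, a change of -2.30 (adjusted p = 0.173). Its arrays did not overlap in either genotype, and it passed in Ex6DEL in 1 of 12 fits with an array left out, at -3.71 without Ex6DEL 0 h replicate 3 (adjusted p = 0.0296). Over these 12 fits its adjusted p reached 0.166. Foxo1 also passed in Ex6DEL in 5 of the 11 other alternatives, not with the replicate block (adjusted p = 0.0863), and its adjusted p reached 0.179 over all alternatives.

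Adaptors next to the receptors differed in direction. Grb2, which couples receptors to RAS, read 7.32, 7.59 and 7.32 in WT at 0 h and 8.44, 9.09 and 8.68 at 4 h. In Ex6DEL it read 6.48, 7.79 and 7.88 at 0 h and 8.38, 8.86 and 9.13 at 4 h. The changes were 1.32 (limma adjusted p = 0.152) and 1.41 (adjusted p = 0.0883), with no overlap in either genotype. Gab1, a docking protein that recruits PI3K and the phosphatase SHP2, had log2 changes of -0.87 at an adjusted p of 0.246 in WT and -1.31 at an adjusted p of 0.0646 in Ex6DEL. Ptpn1, the phosphatase that dephosphorylates the insulin receptor, had a change of 0.46 in WT (adjusted p = 0.199).

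**Figure D5:**
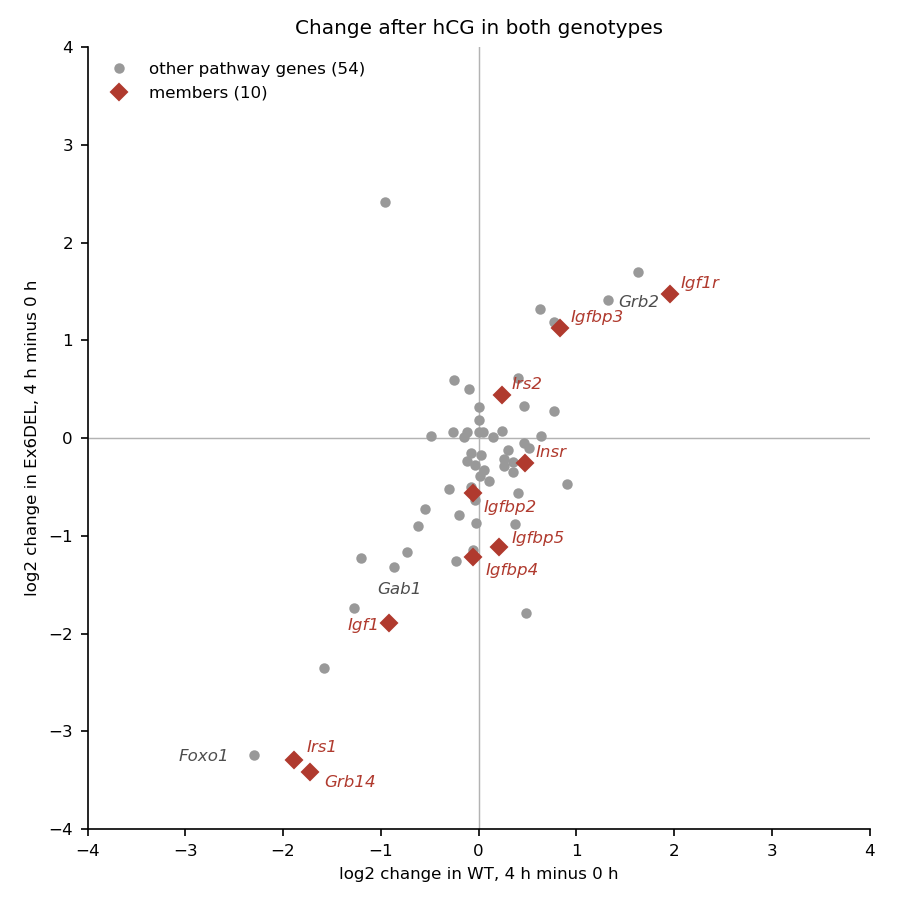
Log2 change after hCG in WT (horizontal) and Ex6DEL (vertical) for the 10 members (red diamonds) and the 54 other measured pathway genes (grey circles). Foxo1, at -2.30 and -3.24, lies next to Irs1 and Grb14 in the lower left, and Igf1r and Grb2 lie in the upper right.

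Between genotypes at 0 h the pathway genes with the smallest p were Htra1, a secreted protease that cuts IGF binding proteins, Pik3cd, a catalytic PI3K subunit, and Ptprf, a receptor phosphatase. Htra1 read 14.72, 14.76 and 15.11 in WT and 17.01, 16.13 and 15.58 in Ex6DEL, a difference of 1.38 with no overlap (limma adjusted p = 0.678). Pik3cd differed by -2.90 and Ptprf by 0.75, each with an adjusted p of 0.874. In Ex6DEL at 0 h Pik3cd read 9.46 in replicate 1, against 12.98 and 14.49 in the others, and without replicate 1 its difference was -1.47. The same 3 genes had the smallest p for the difference in response, at -1.38, 3.37 and -0.97, each with an adjusted p of 0.871. For Pik3cd this was 1.95 without Ex6DEL 0 h replicate 1. At 4 h the smallest p belonged to Igfals, Irs4 and Grb7, which lay between 2.21 and 4.23 on all arrays.

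Genes that ran most like a member across the 12 arrays were sought among 9097 genes above the median level, by the mean absolute difference after each gene was centred on its own mean. Only the 7 members whose values spanned at least 2 log2 units entered. For Irs1 the nearest were Fam13a (0.32), Foxo1 (0.33) and Id3 (0.33), against a median of 1.25 over all genes. For Grb14 they were Prss23 (0.27), Adamts5 (0.30) and Myocd (0.32), and for Igf1r Zdhhc23 (0.20), Man2a1 (0.21) and Ptpn12 (0.22). Igf1 ran closest to Glt8d1 (0.19), Atp7a (0.19) and Kcnt2 (0.20), Igfbp4 to Fads1 (0.12), P3h4 (0.17) and Tmem147 (0.22), and Igfbp5 to C1qb, Rpl37a and Slc66a2 (each 0.24). For Igfbp3 the nearest were Gimap4 at 0.47, Dusp1 at 0.52 and Hsd17b7 at 0.52. The median over all genes, with which these distances are to be read, differed by member. It was 1.21 for Grb14, 1.16 for Igfbp3, 1.01 for Igf1r, 0.78 for Igf1, 0.72 for Igfbp4 and 0.62 for Igfbp5. The points share the same 12 arrays and the change with time, so nearness is a description.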

How the data were processed

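RNA of granulosa cells was measured on 12 Affymetrix arrays, 3 in each of 4 groups. Each deposited number is the log2 intensity of a probe set on an array, for which the submitters' processing notes name GCRMA (version not given), a method that corrects background, normalizes between arrays and summarises probes. The floor it sets compresses low values. The number of arrays limits the precision. Of 45101 probe sets 34958 had exactly 1 symbol in the platform annotation, 932 had several and 9211 were not listed. A gene was read by whichever of its probe sets was brightest on average.

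One model was fitted to all 12 arrays and 4 groups with limma 3.58.1 in R 4.3.3 (lmFit, eBayes), with 8 residual and 0.626 prior degrees of freedom. Tests were two-sided, adjusted by Benjamini-Hochberg over all 18194 genes, or over all 34958 probe sets where a single probe set is given. SE and 95% intervals come from this model. The scripts were tested on simulated data.

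The members and lists were chosen with earlier results of these data known. All members are named, then for each comparison the 3 pathway genes with the smallest p, and the 3 nearest genes in pattern.

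Replicate numbers recur in all groups. Deviations from the group means, over genes, of same-numbered arrays correlated at 0.14, 0.40 and 0.24 between Ex6DEL 4 h and 0 h. The labels do not say what the numbers stand for, and differently numbered arrays were not compared. Whether the numbers pair these arrays is therefore not known, and the block is given as a check. The reported fit has no block, and the blocked value stands beside each call it ends. For each of the other group pairs at least 1 correlation was under 0.1, while the highest, 0.73, was that of replicate 1 between the genotypes at 4 h. No 2 arrays held identical values.

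Alternatives were quantile normalization, a shift of the arrays, a filter keeping genes with a mean above 4.74, low values raised to 2.82, the mean of a gene's probe sets, each probe set alone, trend and robust, array weights, only the groups compared, the replicate block, each array left out, and the pair of arrays with raised ovulatory genes left out.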

Additional observations from a re-analysis of the deposited data

How the results depend on the processing

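Over all alternatives 65 log2 changes were recomputed. Of 1436 values 1351 kept their direction and side of the threshold, 30 lost a call, 24 gained one and 31 turned sign, none of them called. In WT the number of members called was 1 with genes above the median level only (Igf1r, limma adjusted p = 0.0372), beside 525 of 9097 genes. It was 2 with array weights (Igf1r and Irs1, 0.0113 and 0.0203), beside 2289 of 18194 genes, against 169 genes as reported. In Ex6DEL the number of members called was 0 with low values raised to the table median, with each probe set tested alone, with only the groups compared and with the replicate block. It was 1 with the mean of all probe sets (Irs1), and 0 to 2 with single arrays left out, against 2 as reported. Of all 18194 genes, 394 were called in Ex6DEL as reported and 280 with low values raised. With only the groups compared 10 were called, with the replicate block 92 and with the mean of all probe sets 339. Without WT 0 h replicate 1 the number of members called in Ex6DEL was 1, Irs1 (adjusted p = 0.0435), beside 381 genes. The cause was not tested. With the mean of its probe sets, of which the other lies near the floor, Grb14 changed by -1.42. The block ended the calls of Irs1 and Grb14 and changed no other member's. For the other group pairs the block left the number of members called at 0. Under quantile normalization the sign turned for Igfbp5 in WT (-0.25), in Ex6DEL for Insr (0.032) and the Igf1 probe sets 1419519_at (0.15) and 1452014_a_at (0.17), for Ptprf at 0 h (-0.020) and for the Igf1r difference in response (0.16). With the mean of all probe sets it turned for Igfbp5 in WT (-0.47), in Ex6DEL (0.075), at 0 h (-0.62) and in the difference in response (0.54), and for Igf1r at 4 h (-0.0032). With array weights it turned for Igfbp3 in WT (-0.17) and in Ex6DEL for 1419519_at (0.43) and 1452014_a_at (0.088), and without the pair of arrays with raised ovulatory genes for Igfbp2 in WT (0.10). With single arrays left out, the WT changes ranged from -0.35 to 0.22 for Igfbp2, -0.0043 to 1.51 for Igfbp3, -0.30 to 0.31 for Igfbp4 and -0.12 to 0.56 for Igfbp5. Those in Ex6DEL ranged from -0.52 to 0.047 for Insr, -0.65 to 0.62 for 1419519_at, -0.26 to 0.28 for 1452014_a_at and -0.15 to 0.92 for the Igf1r probe set 1452982_at. The Igf1 difference at 0 h ranged from -0.095 to 1.07 and that of Igf1r at 4 h from -0.24 to 0.47.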

Other observations

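Array Ex6DEL 0 h replicate 1 had the lowest Igfbp5 reading of the 12 by probe set 1422313_a_at, 5.20, and the highest by 1452114_s_at, 12.82. Arrays could resemble an array of another group more than those of their own. WT 4 h replicate 1 correlated over genes at 0.981 at most within its group and at 0.994 with an array of another group. At 4 h the deviations of replicate 1 in WT and Ex6DEL correlated at 0.73 over genes, and those of replicate 3 at -0.02. Deviations are taken from each group's own mean, so they cannot be set against those within a group. By its main probe set Igf1r was highest in replicate 1 of each 4 h group, at 12.72 in WT and 12.85 in Ex6DEL. This held for 1452108_at too, while 1452982_at and 1446303_at were highest in replicate 2 in WT and replicate 1 in Ex6DEL. Probe set 1426565_at was highest in replicate 2 in WT (10.96) and replicate 3 in Ex6DEL (10.70). Igfbp7, which encodes a secreted protein related to the IGF binding proteins and was singled out after its values were seen, read 14.71, 12.63 and 10.97 in Ex6DEL at 0 h and 11.80, 11.67 and 9.88 in WT at 0 h, with overlap and a limma adjusted p of 0.874.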
